A study of Mus musculus with 30 samples.

Results

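The mitochondrial ribosomal protein genes were followed over 48 h in cultures whose labels name mouse leg muscle as their source. Members were taken as every probe set annotated to 1 gene whose symbol begins with Mrpl or Mrps and a digit, and each gene was represented by its brightest probe set, from the A chip first. The rule gave 76 genes of the 18193 named on the arrays, 47 with Mrpl and 29 with Mrps symbols. Of these, 74 were measured on the A chip and Mrps10 and Mrps27 on the B chip. All 76 were bright enough to be tested. Total RNA had been collected at 0, 4, 12, 24 and 48 h, with 3 replicates an hour, and each replicate was hybridised to an A and a B array of an Affymetrix pair, 30 arrays in all. The labels name no strain, age, medium or treatment, and they do not say what begins at 0 h. They do not describe replicates as separate cultures or animals either, so the p-values rest on array-to-array spread alone, and this spread may be technical.

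Mitochondria carry their own ribosome, which translates the few messenger RNAs made from mitochondrial DNA into core subunits of the respiratory chain and the ATP synthase. Its ribosomal RNAs come from mitochondrial DNA, but all of its proteins are encoded in the nucleus, made in the cytosol and imported. Most proteins of the large subunit have Mrpl symbols and most of the small subunit Mrps symbols. The symbol alone does not settle where a product belongs. The products of Mrps18a and Mrps30, for example, are placed in the large subunit. Some have counterparts in bacterial ribosomes and others arose later. In muscle, mitochondrial content is known to grow as myoblasts become myotubes.

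The values are intensities on a linear scale, and a log2 change is the difference of log2(intensity + pseudocount) between an hour and 0 h, with a pseudocount of 29 on A and 54 on B. A gene was called at an adjusted p under 0.05 in limma's moderated test, after Benjamini-Hochberg adjustment over all tested probe sets of a chip. Array medians were 154.7 to 183.4 on A, and on B 220 to 256.2. The 15 arrays of each chip limit the precision, and an exact permutation test of 3 arrays against 3 reaches a two-sided p of 0.1 at the least. All 8 markers of the skeletal muscle list passed the brightness filter on A, against 2 of 8 for fibroblasts, endothelium and macrophages, 2 of 6 for adipocytes, 3 of 5 for Schwann cells and 5 of 8 for pericytes and smooth muscle. The arrays of replicate 3 stand apart from those of replicates 1 and 2. Counts are therefore repeated in a fit that holds replicate 3 as a batch term, called the batch fit, and in a fit to replicates 1 and 2 only. In such bulk RNA, fewer cells of a type and less RNA per cell cannot be told apart.

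Promoters are shown first, because the letters shared by these genes are a feature that the choice by symbol did not use. RefSeq's promoter table for GRCm38.p6 held 67 of the 76 genes, with 73 promoters of 250 bases before to 50 after the start. The 150 bases before the start are printed 5′ to 3′ for Mrpl32, Mrpl17, Mrpl22 and Mrpl3, with motif matches in capitals. Mrpl32 had the largest log2 change at 48 h and holds NRF1 matches at separate places, Mrpl17 holds an NRF1 match, Mrpl22 holds an NRF1 and an ETS match, and Mrpl3 holds an ETS match. These 4 were chosen because they hold a match, and the same stretch of Mrps12, Mrpl42, Mrps18b and Mrpl35 held none of the motifs searched. In the wider window of 250 bases before to 50 after the start, each of those did hold a match. Mrps12 had an ETS match at base 2 after the start, Mrpl42 a YY1 match at 28 and Mrpl35 a YY1 match at 24. Mrps18b had an NRF1 match 224 bases before the start and an ETS match at 44 after it.
Mrpl32, chr13:14613038-14613187, minus strand: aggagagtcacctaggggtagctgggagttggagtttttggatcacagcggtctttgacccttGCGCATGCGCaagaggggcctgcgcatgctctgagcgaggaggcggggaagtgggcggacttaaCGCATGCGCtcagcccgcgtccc
Mrpl17, chr7:105811088-105811237, minus strand: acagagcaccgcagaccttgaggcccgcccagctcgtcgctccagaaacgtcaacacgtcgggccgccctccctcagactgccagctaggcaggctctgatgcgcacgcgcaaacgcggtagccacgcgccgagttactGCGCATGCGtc
Mrpl22, chr11:58171514-58171663, plus strand: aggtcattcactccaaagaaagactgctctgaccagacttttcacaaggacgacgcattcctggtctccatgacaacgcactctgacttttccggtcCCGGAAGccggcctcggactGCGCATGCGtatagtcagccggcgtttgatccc
Mrpl3, chr9:105053118-105053267, plus strand: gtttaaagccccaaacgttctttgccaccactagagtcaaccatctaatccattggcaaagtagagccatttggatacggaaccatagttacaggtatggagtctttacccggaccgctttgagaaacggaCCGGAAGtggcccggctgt

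Motifs were searched on both strands as fixed letters. The NRF1 motif was GCGCATGCG, the ETS motif, as read by GABP, CCGGAAG, the YY1 motif AAGATGGCG and the E-box CACGTG. NRF1, GABP and YY1 are factors known to act on nuclear genes for mitochondrial proteins, and the E-box is read by Myc among others. The NRF1 motif is nearly its own reverse complement, so matches on opposite strands can overlap, as 1 pair does in Mrpl32. Of the 73 member promoters, 25 held the ETS motif, or 34.2%, against 13.0% of the 18010 promoters of genes on the arrays and 8.86% of all 32851 in the table. The YY1 motif stood in 8, or 11%, against 2.1% and 1.4%. The NRF1 motif stood in 7, or 9.59%, against 2.7% and 1.75%, and the 7 genes were Mrpl9, Mrpl10, Mrpl17, Mrpl22, Mrpl32, Mrpl39 and Mrps18b. The E-box stood in 9.59%, against 8.74% and 7.15%. At least 1 of the NRF1, ETS and YY1 motifs was found in 35 promoters, or 47.9%, against 16.8% and 11.4%. The median GC content of member promoters was 58.7%, against 58.3% for genes on the arrays. Their median number of CpG dinucleotides was 21, against 16. These matches are descriptions of letters in a fixed window, with no test.

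A member often shared its promoter region with a gene running the other way. Going by RefSeq's gene starts, 25 of 67 members, or 37.3%, had the start of a gene on the opposite strand within 1000 bases upstream, against 16.2% of the genes on the arrays and 12.3% of all genes there. Mrpl46 and Mrps11 face each other across 42 bases, so the pair counts for both. Mrpl43 lies 116 bases from Twnk, the helicase of mitochondrial DNA replication. Mrps12 lies 147 bases from Sars2, the mitochondrial seryl-tRNA synthetase, and Mrpl32 205 bases from Psma2, a proteasome subunit. Mrpl47 lies 308 bases from Ndufb5, a subunit of respiratory complex I. Of these neighbours 21 were tested, Mrpl46 and Mrps11 among them, and limma called 0 of them at 24 h and 0 at 48 h. It called 2.67% and 2.15% of all A probe sets at these hours, and 0.851% and 1.13% of those on B. At such shares a count of 0 among 21 says little about the neighbours. Psma2, next to Mrpl32, had 5167 ± 736.7 at 0 h and 4718 ± 1264 at 48 h (SD, n = 3 here and at every mean below), a log2 change of -0.16 ± 0.20 (SE).

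**Figure D1:**
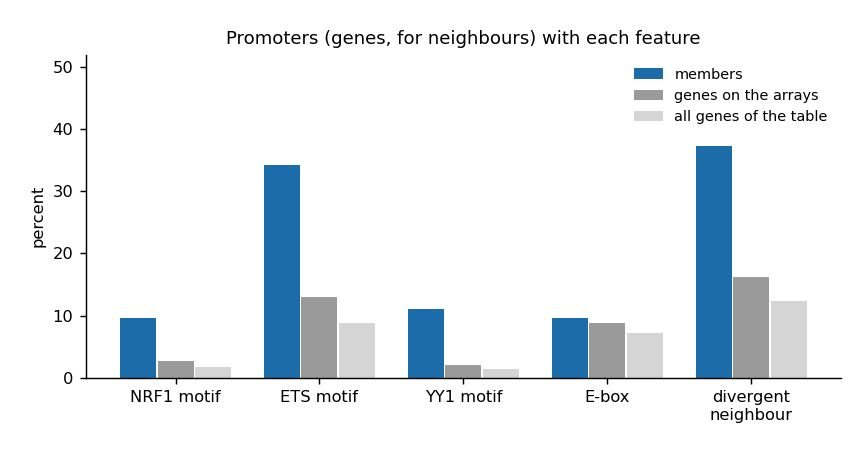
Percent of promoters holding each motif, and percent of genes with a divergent neighbour within 1000 bases, on the vertical axis, for the members, the genes on the arrays and all genes of the RefSeq tables. The ETS motif stood in 34.2% of member promoters and the E-box in 9.59%, the latter close to the 8.74% of genes on the arrays.

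Across the 48 h no member passed the test. Against 0 h limma called 0 of 76 at 4 h, 0 at 12 h, 0 at 24 h and 0 at 48 h. In the F test over all hours it called 0. Of all tested A probe sets 0% were called at 4 h and 0% at 12 h, 2.67% at 24 h, 2.15% at 48 h and 1.97% in the F test. The smallest adjusted p among members was 0.884 at 4 h, 0.755 at 12 h, 0.168 at 24 h and 0.157 at 48 h, with 0.327 in the F test. At an unadjusted p under 0.05 stood 1 member at 4 h, 2 at 12 h, 6 at 24 h, 7 at 48 h and 2 in the F test. Over all A probe sets that share was 4.94%, 6.56%, 16.4% and 14.9% at the 4 hours, and the members' counts lay below that share at each of them. The same arrays at 0 h enter all of these comparisons.

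With replicate 3 as a batch term, 1 member was called at 48 h, Mrpl42, and 0 at the other hours, where the batch fit called 13% of all A probe sets at 24 h and 9.79% at 48 h. Its F test called 0 members and 14% of all A probe sets. In replicates 1 and 2 alone 3 members were called at 24 h (Mrpl15, Mrpl32 and Mrpl47) against 15% of all A probe sets. At 48 h there were 4 (Mrpl42, Mrpl47, Mrpl52 and Mrps16) against 12.4%, and the F test called 2 (Mrpl15 and Mrpl42) against 17.5%. With arrays weighted by their estimated quality limma called 3 members at 24 h against 17.6% of all A probe sets, 5 at 48 h against 9.26% and 8 in the F test against 21%. With the replicate number as a block it called 2 at 48 h against 9.01%. Each of these counts is a smaller share of the 76 members than of all A probe sets.

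The changes were small as well as uncalled. The median log2 change of the 76 members was -0.11 at 4 h, -0.04 at 12 h, -0.02 at 24 h and -0.03 at 48 h, beside -0.016, -0.011, -0.046 and 0.007 for all tested A probe sets. The median size of the change, whatever its sign, was 0.14, 0.11, 0.13 and 0.13 in members and 0.14, 0.16, 0.21 and 0.20 in all A probe sets. The 95% interval of the change lay wholly within 1.5-fold for 51, 56, 50 and 50 of the 76 members at 4, 12, 24 and 48 h. On A that was 68.9%, 74.3%, 66.2% and 67.6% of members, against 46.6%, 44.8%, 37.5% and 38.1% of all tested probe sets. Because each member stands for its gene by its brightest probe set, the same was computed for the brightest A probe set of each of 7892 genes, where the shares were 49.2%, 46.3%, 38.1% and 39.5%. The median within-hour SD was 0.20 in members and 0.25 in those genes on the log2 scale. Above the median brightness of tested A probe sets lay 94.6% of the 74 members and 54.7% of those genes. How far brightness and spread account for the share within 1.5-fold was not tested.

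A change of 2-fold or more in either direction lay outside the 95% interval for 73 members at 4 h and 74 at each later hour. The exceptions were Mrpl15, Mrpl20 and Mrpl32 at 4 h, Mrpl15 and Mrpl32 at 12 and 24 h, and Mrpl20 and Mrpl32 at 48 h. Mrpl32 was the member whose fitted change went past 1.5-fold, at 12, 24 and 48 h, and no member's did at 4 h.

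**Figure D2:**
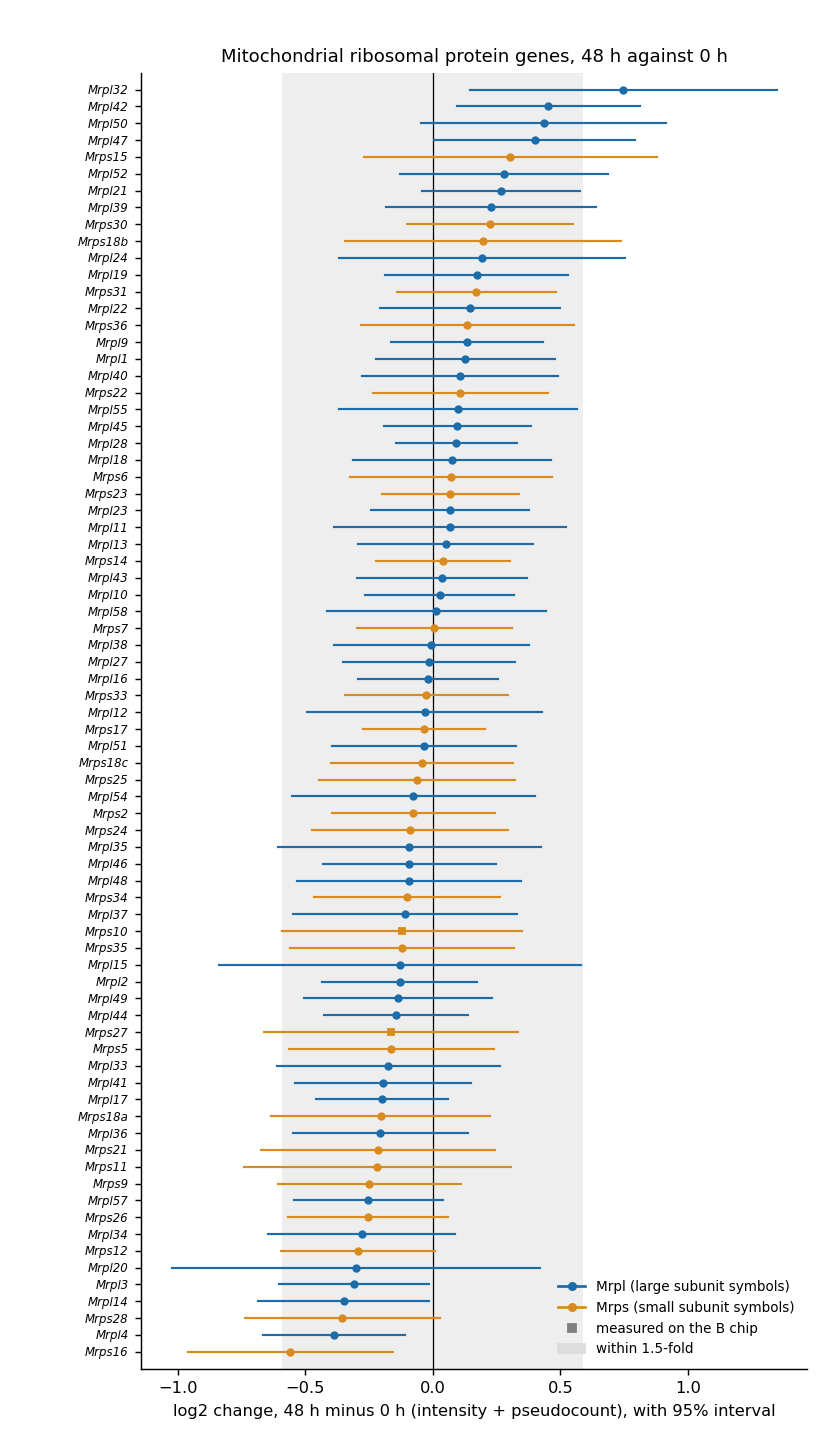
Log2 change of each of the 76 members at 48 h against 0 h (horizontal axis) with its 95% interval from limma, sorted by size, with Mrpl genes in blue and Mrps genes in orange; squares are the genes measured on the B chip and the grey band marks 1.5-fold. Changes ran from -0.56 in Mrps16 to 0.75 in Mrpl32, and 50 of the 76 intervals lie inside the band.

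Directions were mixed among both the Mrpl and the Mrps symbols. At 48 h the 47 Mrpl genes had a median log2 change of -0.005, with 23 above 0 and 24 below, and the 29 Mrps genes -0.08, with 10 above and 19 below. The 45 members with a bacterial counterpart had a median of -0.04 and the 31 without one listed -0.005. The directions shift with single arrays and with the scaling. At 24 h 36 members were above 0 and 40 below, and median centring of the arrays turned this to 47 and 29. At 48 h 33 were above and 43 below. Without the 0 h array of replicate 3 it was 48 and 28, and without that of replicate 1 it was 22 and 54.

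The lowest median was that of 4 h, where 55 members lay below their 0 h level and 21 above. The size of that majority depended on single arrays. Without the 4 h array of replicate 1 the count was 37 below and 39 above with a median of 0.004. Without the 0 h array of replicate 3 it was 39 and 37. It grew to 61 and 15 without the 0 h array of replicate 1, and to 62 and 14 without the 4 h array of replicate 3. Leaving out replicate 2 gave 46 and 30 for its 0 h array and 55 and 21 for its 4 h array. No 4 h change was called. By mean log2 value 27 members were highest at 0 h, 7 at 4 h, 8 at 12 h, 14 at 24 h and 20 at 48 h. Of the 76, 26 were lowest at 4 h.

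Mrps12 encodes the small subunit protein of the decoding centre, homologous to the bacterial protein altered in streptomycin resistance. It read 1700.7, 1836.3 and 1739.1 in replicates 1, 2 and 3 at 0 h and 1122.5, 1226.9 and 1331.9 at 4 h. All 3 arrays of 4 h lay below all 3 of 0 h. The log2 change was -0.51 ± 0.14 (SE) with an unadjusted p of 0.00266 and an adjusted p of 0.884 in limma, so the difference did not pass. At 48 h it read 1373.3, 1589.1 and 1336.1, again below every 0 h array, with a change of -0.29 ± 0.14 and an adjusted p of 0.355. Its adjusted p in the F test, 0.327, was the smallest of any member.

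Among the 5 most positive log2 changes at 48 h, none of them called, was that of Mrpl32, a large subunit protein known to be trimmed by the m-AAA protease of the inner membrane before it joins the ribosome. It read 692.9, 260.2 and 609.2 at 0 h, 825.8, 700.5 and 570.2 at 4 h, 823.0, 765.9 and 676.0 at 12 h, 997.8, 904.6 and 610.4 at 24 h, and 840.7, 836.8 and 807.9 at 48 h. The 0 h array of replicate 2 was far below its partners, and all 48 h arrays lay above all 0 h arrays. The log2 change at 48 h was 0.75 ± 0.28 with a 95% interval of 0.15 to 1.35 and an adjusted p of 0.21. Without the 0 h array of replicate 2 it was 0.34. In replicates 1 and 2 alone, a pair that includes that array, the change at 24 h was 1.10 with an adjusted p of 0.0266.

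Mrpl42, a large subunit protein with no bacterial counterpart listed, read 1415.2, 1572.2 and 1878.9 at 0 h and 2294.0, 2163.4 and 2187.9 at 48 h. Its 24 h arrays, at 1921.6, 1896.5 and 1996.7, also lay above all of 0 h. The order of the hours was less clear at 4 h, where replicate 3 read 2460.2 and replicates 1 and 2 read 1569.9 and 1484.1. At 48 h the log2 change was 0.45 ± 0.17 with an adjusted p of 0.203. The batch fit, with the same change, gave an adjusted p of 0.0401, and replicates 1 and 2 alone gave a change of 0.57 with an adjusted p of 0.00848.

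The other positive changes taken by rule were those of Mrpl50, Mrpl47 and Mrps15, none of which passed. Mrpl50, of the large subunit, read 872.1, 953.6 and 924.3 at 0 h and 1265.9, 1075.6 and 1428.4 at 48 h, without overlap (log2 change 0.44 ± 0.22, adjusted p 0.393). Mrpl47, also of the large subunit, read 547.1, 492.7 and 818.4 at 0 h and 692.3, 845.9 and 895.7 at 48 h, where the groups overlapped through replicate 3 of 0 h (0.40 ± 0.18, adjusted p 0.328). Its change was 0.26 without the 0 h array of replicate 2 and 0.61 without that of replicate 3. In replicates 1 and 2 alone Mrpl47 was called at 24 h (0.51, adjusted p 0.0435) and 48 h (0.54, adjusted p 0.0392). Mrps15, with a bacterial counterpart in the small subunit, read 428.5, 1039.9 and 799.4 at 0 h and 968.8, 908.2 and 786.0 at 48 h. Its change of 0.30 ± 0.27 turned to -0.04 without the 0 h array of replicate 1. Other tested probe sets of these genes, none of them called, gave further 48 h changes. They were 0.39 for Mrpl50 on A, 0.04 and -0.48 for Mrpl47 on B, and -0.04 on A and -0.61 on B for Mrps15.

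The 5 most negative log2 changes at 48 h, none of them called, were those of Mrps16, Mrpl4, Mrps28, Mrpl14 and Mrpl3, all with bacterial counterparts. Mrps16, of the small subunit, read 1265.2, 1988.7 and 1349.9 at 0 h and 948.0, 977.2 and 1118.0 at 48 h, without overlap. Its log2 change was -0.56 ± 0.19 with an adjusted p of 0.158, and replicates 1 and 2 alone gave -0.71 with an adjusted p of 0.0363. Without the 0 h array of replicate 2, the highest of the 15, the change was -0.36. The replicate block gave an adjusted p of 0.045 and array weights 0.0263.

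Mrpl4, of the large subunit, had means of 1471 ± 228.3, 1409 ± 149.3, 1330 ± 68.05, 1163 ± 28.95 and 1110 ± 18.95 at the 5 hours. It read 1273.1, 1720.7 and 1418.4 at 0 h and 1127.2, 1111.8 and 1089.5 at 48 h, and the arrays of 24 h and of 48 h lay below all of 0 h. The log2 change at 48 h was -0.39 ± 0.13 with a 95% interval of -0.66 to -0.11, and its adjusted p of 0.157 was the smallest of any member at that hour. The batch fit gave 0.0569, the replicate block 0.0476 and array weights 0.0468.

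Mrpl14 and Mrps28 were lower on average without passing. Mrpl14, of the large subunit, read 1063.3, 1513.0 and 1260.4 at 0 h and 1063.0, 963.3 and 942.4 at 48 h, where the lowest array of 0 h and the highest of 48 h nearly met (-0.35 ± 0.16, adjusted p 0.311). Mrps28, of the small subunit, read 526.9, 843.7 and 710.0 at 0 h and 515.3, 536.4 and 529.1 at 48 h, with overlap (-0.35 ± 0.18, adjusted p 0.38). Without the 0 h array of replicate 2 the change was -0.22 in Mrpl14 and -0.21 in Mrps28, and without that of replicate 1 it was -0.53 in Mrps28.

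Mrpl3 encodes a large subunit protein whose bacterial counterpart reaches toward the peptidyl transferase centre. Its brightest probe set read 1641.2, 1799.2 and 1653.3 at 0 h, and every array of every later hour lay below these, down to 1436.6, 1442.0 and 1227.1 at 48 h. The log2 change at 48 h was -0.31 ± 0.14 with an adjusted p of 0.309. A second Mrpl3 probe set on A, outside the rule, read 764.3, 978.7 and 729.4 at 0 h and 538.3, 530.5 and 516.7 at 48 h. It was the 1 of 139 tested member probe sets that limma called lower at 48 h (-0.60 ± 0.14, adjusted p 0.0458; 0.00977 in the batch fit). That call was kept in 3 of 15 fits that each left out 1 array, with adjusted p from 0.0409 to 0.233. It held when the array left out was replicate 3 of 0 h, replicate 3 of 24 h or replicate 2 of 4 h, and was lost when it was any other. The third tested Mrpl3 probe set, on the B chip, had a change of -0.10 ± 0.21.

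Over all members, 3 had all 48 h arrays above all 0 h arrays (Mrpl32, Mrpl42 and Mrpl50), where 9.89% of all A probe sets did. The reverse was true of 6 (Mrpl3, Mrpl4, Mrpl14, Mrpl17, Mrps12 and Mrps16), where 8.35% of all A probe sets did. Both counts are near or below that background of the 74 members on A.

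**Figure D3:**
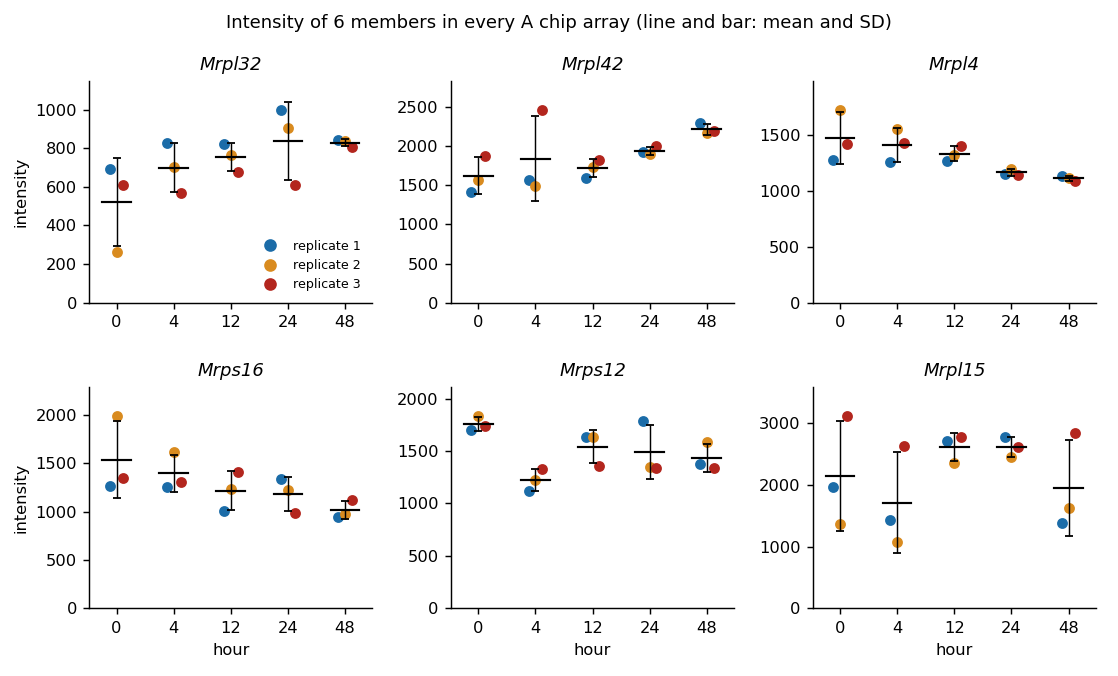
Intensity (vertical axis, from 0) of 6 members in each of the 15 A arrays against the hour, with replicates 1, 2 and 3 in blue, orange and red and the mean and SD of each hour in black. Mrpl4 goes from a mean of 1471 at 0 h to 1110 at 48 h with a narrowing spread, and replicate 3 of Mrpl15 lies apart at 0, 4 and 48 h.

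At 24 h the smallest adjusted p belonged to Mrpl34, of the large subunit. It read 929.2, 1444.7 and 1115.1 at 0 h and 884.7, 829.2 and 737.5 at 24 h, without overlap (-0.48 ± 0.17, adjusted p 0.168). At 48 h, with 1124.6, 906.5 and 809.8, it overlapped 0 h again.

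The stalk of the large subunit, where translation factors dock, was measured through Mrpl12, the stalk protein, and Mrpl10 and Mrpl11 at its base. Mrpl12 had 1769 ± 591.7 at 0 h and 1671 ± 69.66 at 48 h (log2 change -0.03 ± 0.22). Mrpl10 had 1187 ± 126.1 and 1206 ± 41.19 (0.03 ± 0.14), and Mrpl11 1093 ± 376.7 and 1095 ± 13.96 (0.07 ± 0.21). These means differed by less than the spread of the 0 h arrays. The sign of each of these small changes turned without 1 of the 0 h arrays, and Mrpl10's also under median centring.

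Of the exit tunnel region, where new chains leave toward the inner membrane, 7 members were listed (Mrpl17, Mrpl22, Mrpl23, Mrpl24, Mrpl39, Mrpl44 and Mrpl45). Their median log2 change at 48 h was 0.10, with 5 above 0 and 2 below, in a range of -0.20 to 0.23.

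The related genes Mrps18a, Mrps18b and Mrps18c descend from 1 bacterial protein. Mrps18a had 1521 ± 292.1 at 0 h, 1094 ± 157.6 at 24 h and 1303 ± 125.5 at 48 h, with a log2 change at 24 h of -0.46 ± 0.20 and an adjusted p of 0.27. Mrps18b had 988.6 ± 341.7 at 0 h and 1096 ± 13.78 at 48 h, and Mrps18c 882.9 ± 78.38 and 857.1 ± 78.7, both within the spread of their 0 h arrays.

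Probe sets of a gene did not always give the same direction. Of 26 genes with more than 1 tested A probe set, 12 had changes of both signs at 48 h, and the median distance between a gene's extremes was 0.13. Mrpl11 was the widest, from -0.38 to 0.52 over its 3 tested A probe sets, followed by Mrps9, from -0.25 to 0.37, and Mrpl15, from -0.13 to 0.30. No change of those probe sets was called. The mean of all A probe sets of the gene turned the 48 h change of Mrps9 to 0.12 and that of Mrpl15 to 0.14. There were 4 probe sets present on both chips, which gave 48 h changes of -0.02 and -0.23 for Mrpl27, 0.04 and -0.12 for Mrpl43, and 0.16 and -0.001, and 0.11 and -0.10, for Mrpl52, on A and B in turn.

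More members were called between replicates than between hours. In limma, with hour as a further factor, 14 members were called between replicate 3 and replicates 1 and 2. On A 11 were higher in replicate 3 and 1 lower, where 16.4% of all tested A probe sets were higher and 17.5% lower. On B both members were higher, where 7.44% of probe sets were. The 11 on A were Mrpl12, Mrpl15, Mrpl35, Mrpl37, Mrpl40, Mrpl47, Mrpl58, Mrps18b, Mrps25, Mrps30 and Mrps35. The share of members higher on A is close to that background, and the share lower is below it. The count of 14 fell to 7 when replicate 3 of 0 h or replicate 2 of 12 h was left out, and to 4 when replicate 3 of 4 h or of 12 h was. Mrpl15, Mrpl35, Mrps18b and Mrps35 were called in all 15 fits that each left out 1 array.

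Mrpl35, a large subunit protein with a bacterial counterpart, was 0.49 ± 0.09 higher in replicate 3 on the log2 scale (adjusted p 0.00061). Replicate 3 read 1968.7, 1657.6, 1835.1, 1628.2 and 1629.4 at the 5 hours. Replicates 1 and 2 lay between 1016.9 and 1474.1, below every one of these. Mrpl15, at 0.61 ± 0.14 (adjusted p 0.00344), showed the difference at some hours: replicate 3 read 3122.1 at 0 h, 2636.9 at 4 h and 2845.0 at 48 h, where the others reached at most 1959.7. At 12 and 24 h the 3 replicates of Mrpl15 lay between 2353.6 and 2783.4. These values are of its brightest probe set. Its other tested A probe sets had smaller replicate 3 differences of 0.20, 0.21, -0.12 and 0.37, and its tested B probe set -0.29. Those of 0.21 and 0.37 were called and the rest were not. Mrps18b read 1362.1 in replicate 3 and 691.8 and 912.0 in the others at 0 h, but 1085.2 against 1111.7 and 1091.9 at 48 h (0.46 ± 0.11 over all hours, adjusted p 0.0047).

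Both members of the B chip were higher in replicate 3 over all hours. Mrps10 read 4401.1, 5292.8 and 6378.7 at 0 h and 3472.6, 4206.4 and 6939.7 at 4 h, and 4973.5, 4767.1 and 4877.7 at 48 h. Mrps27, a pentatricopeptide repeat protein, read 1613.2, 2532.8 and 3281.5 at 0 h and 2195.8, 1819.8 and 2376.9 at 48 h. Replicate 3 was the highest array of Mrps10 at 0, 4, 12 and 24 h and of Mrps27 at every hour. Mrps34, the 1 member called lower in replicate 3 (-0.24 ± 0.09, adjusted p 0.0489), read 1917.4, 1656.2 and 1258.7 at 24 h and 1814.6, 1829.3 and 1349.6 at 48 h. Replicate 3 lay between the others at 0 h (1591.7, 2002.4 and 1744) and at 4 h (1457.1, 1833.6 and 1486.1), and the call was kept in 3 of the 15 fits without 1 array.

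As a group the members were high in replicate 3 at the early hours and not at the late ones. The median over the 74 A members of replicate 3 minus the mean of replicates 1 and 2 was 0.20 at 0 h, 0.16 at 4 h and 0.21 at 12 h on the log2 scale. It was -0.03 at 24 h and -0.05 at 48 h. The same median over all tested A probe sets stayed between -0.051 and 0.002. Replicate 3 read above both others in 38, 39 and 46 of the 74 members at 0, 4 and 12 h, and in 25 and 19 at 24 and 48 h. It did so in 35.3%, 34.7%, 36.5%, 40.1% and 39.3% of all tested A probe sets at the 5 hours. The difference between early and late hours was not tested.

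Replicate 1 also took part in this spread. The median deviation of A members from their mean over 15 arrays was -0.14, 0.09 and 0.17 in replicates 1, 2 and 3 at 0 h, and -0.18, -0.004 and 0.07 at 4 h. At 24 h the 3 medians lay between -0.015 and 0.04, and at 48 h between -0.018 and 0.03. The members' median thus lay below or above 0 in single early arrays, each shift being that of 1 array. The median of all A probe sets stayed within -0.025 to 0.038 in every array. Arrays had been scaled to a common level, which limits how far that median can move, so it is a weak contrast. Genes as bright as the members were not compared array by array.

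**Figure D4:**
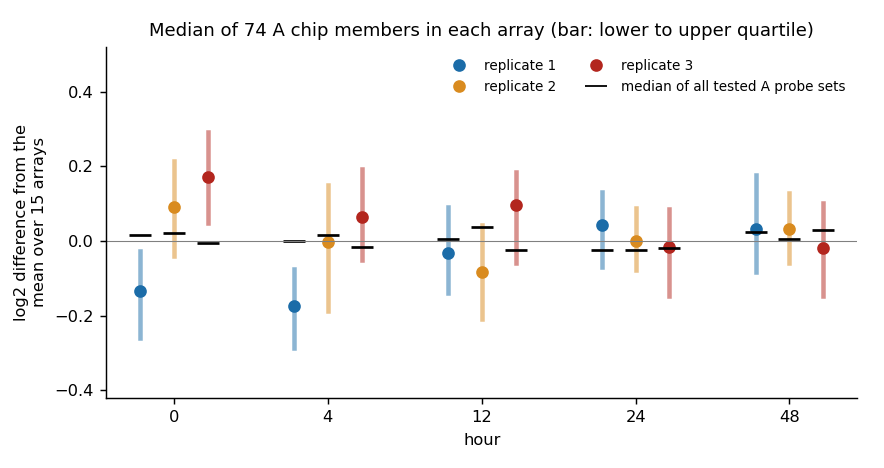
Median log2 deviation of the 74 A members from each gene's mean over 15 arrays (vertical axis) in every array, by hour and replicate; bars run from the lower to the upper quartile of the members and black dashes are the medians of all tested A probe sets. At 0 h the medians of replicates 1, 2 and 3 are -0.14, 0.09 and 0.17, and at 24 h they lie between -0.015 and 0.04.

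The spread among the 3 arrays of an hour was smallest at 24 h. The median SD of members on the log2 scale was 0.20, 0.22, 0.18, 0.10 and 0.15 at 0, 4, 12, 24 and 48 h, against 0.22, 0.24, 0.22, 0.19 and 0.23 for all tested A probe sets. At 24 h 55 of 74 members, or 74.3%, had a smaller SD than at 0 h, against 55.5% of all A probe sets. At 4 h it was 44 members, or 59.5%, against 44.4%. At 12 and at 48 h it was 47 each, or 63.5%, against 50.1% and 48.6%. Mrpl11 went from an SD of 376.7 at 0 h to 26.13 at 24 h and 13.96 at 48 h, at means of 1093, 1018 and 1095. Mrps10 went from 990.4 to 106.1 and 103.3. Differences in spread between hours were not tested.

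**Figure D5:**
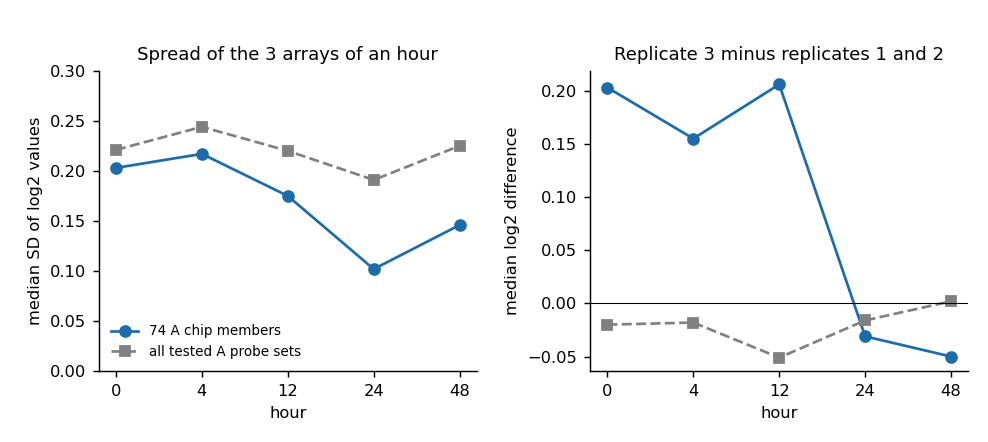
Left, median SD of the log2 values of an hour's 3 arrays; right, median log2 difference of replicate 3 from the mean of replicates 1 and 2, each against the hour, for the 74 A members (blue) and all tested A probe sets (grey). The members' median SD is 0.10 at 24 h, and their replicate 3 difference goes from 0.21 at 12 h to -0.03 at 24 h.

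Some markers differed between hours and some between replicates, in mixed directions. Of the 8 skeletal muscle markers 4 were called lower in replicate 3 (Chrna1, Des, Myod1 and Myog), where 17.5% of all A probe sets were. Actn2 (0.395) and Ckm (0.46) were higher there, uncalled. The summed intensity of the 8 on A was 38700 to 44060 at 0 h, 51480 to 61780 at 24 h and 34260 to 58490 at 48 h. At 24 h 4 of the 8 were called higher and at 48 h 3. Of all A probe sets 2.67% and 2.15% were called at these hours, in either direction. Myod1 (-0.73), Myog (-0.31) and Chrna1 (-0.11) had negative log2 changes at 48 h, uncalled. The 2 tested endothelial markers summed to between 327.4 and 632.9, and the 2 tested macrophage markers to between 392.8 and 810.2, over all arrays. Of these, Tek (-0.59) and Adgre1 (-0.52) were called lower in replicate 3, and Kdr (-0.09) and Csf1r (0.22) were not called. In each of 3 further lists 1 gene was called higher in replicate 3, where 16.4% of all A probe sets were. Col1a2 was 0.82 higher on the log2 scale among the 2 fibroblast markers. Lpl (1.42) was so among the 2 adipocyte markers and Pmp22 (0.85) among the 3 Schwann cell markers. The others of these lists, Col3a1 (0.27), Retn (0.13), Sox10 (-0.17) and Egr2 (-0.20), were not called. At 24 h the sums of these lists ran from 2075 to 4415 for fibroblasts, 285.8 to 699.2 for adipocytes and 743.6 to 1142 for Schwann cells. Pericyte and smooth muscle markers summed to 13470 to 19590 at 0 h and 10320 to 13910 at 48 h. Of the 5 tested, Rgs5 (-3.96) and Notch3 (-1.38) were called lower in replicate 3 and Cspg4 (0.78) higher. Acta2 (-0.19) and Tagln (0.01) were not called. The part of these cell types in the members' values was not tested.

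Other members named by the rule were Mrps14, Mrpl51, Mrpl1, Mrpl33, Mrps5 and Mrps9. Mrps14, of the small subunit, with 2 tested A probe sets, had 48 h changes of 0.04 and -0.001 on the log2 scale in them, and Mrpl51, of the large subunit, -0.03 and -0.25. Mrpl1, of the large subunit, had a mean of 254.3 over 15 arrays, above the pseudocount of 29, and a 48 h change of 0.13. Mrps9 was lower at 12 h, with 301.1, 272.4 and 433.3 against 448.9, 407.0 and 479.5 at 0 h, in overlapping groups (-0.40 ± 0.17, adjusted p 0.755).

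Of the genes that work with this ribosome, 106 in 7 lists were tested, 84 on A and 22 on B, and 3 passed in a comparison with 0 h. Over all A probe sets 2.67% were called at 24 h and 2.15% at 48 h. The shares of B probe sets were 0.851% and 1.13%. The 16 translation factors included 1 that rose, Mtif2, the initiation factor that brings the initiator tRNA to the small subunit. It read 529.3, 468 and 543.8 at 0 h and 711.9, 753.5 and 720.2 at 48 h (0.48 ± 0.12, adjusted p 0.0472). All 48 h arrays lay above all 0 h arrays. In each of the 15 fits that left out 1 array Mtif2 was called at no hour. The smallest of its limma adjusted p over the hours of a fit ran from 0.0521 to 0.228. Lrpprc, which stabilises mitochondrial messenger RNAs, had 629.7 ± 98.9 at 0 h and 894.5 ± 37.59 at 24 h (0.50 ± 0.17, adjusted p 0.136).

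Of 18 tRNA synthetases and related enzymes 1 rose, Nars2, which charges mitochondrial tRNA with asparagine. On the B chip it read 1763.1, 2010.7 and 1952.4 at 0 h, 2856, 2775 and 2951.3 at 12 h and 6278.3, 5089.2 and 3488.5 at 24 h. The log2 change at 24 h was 1.31 ± 0.21 with an adjusted p of 0.00716, where 0.851% of B probe sets were called. Replicate 3 was the lowest at 24 h and again at 48 h, with 2230.3 beside 3715.4 and 3506.1, but still above every 0 h array. Nars2 was called at some hour in all 15 fits without 1 array. The smallest of its limma adjusted p over the hours of a fit ran from 0.00169 to 0.0494. Vars2, the valine enzyme, had 544.3 ± 76.76 at 0 h and 272.6 ± 109.9 at 48 h (-0.93 ± 0.27, adjusted p 0.11).

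Of 25 genes for ribosome assembly and rRNA modification 1 fell, Mpv17l2, an inner membrane protein that acts in assembly. On the B chip it read 2438.1, 3297.3 and 2422.6 at 0 h and 1766.1, 1540.2 and 1532 at 48 h, without overlap (-0.72 ± 0.16, adjusted p 0.0466, where 1.13% of B probe sets were called). Mpv17l2 was called at some hour in 3 of the 15 fits without 1 array, those that left out replicate 3 of 0, 4 or 24 h. Trub2, a pseudouridine synthase, had 370.2 ± 54.72 at 0 h and 264.4 ± 53.29 at 24 h (-0.45 ± 0.18, adjusted p 0.225).

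None of the other lists held a called gene. The 4 tested ribosome proteins with other symbols included Dap3, with 1110 ± 153.6 at 0 h and 997.8 ± 139.8 at 48 h, and Ptcd3, with 1221 ± 113 and 1396 ± 40.75. Of 10 genes for transcription and replication of mitochondrial DNA, Top1mt, a topoisomerase, had 146.1 ± 19.28 at 0 h and 89.43 ± 13.93 at 4 h (-0.57 ± 0.18, adjusted p 0.884). Tefm, an elongation factor, had 398.5 ± 16.92 at 0 h and 542.2 ± 107.4 at 24 h (0.40 ± 0.17, adjusted p 0.248).

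Among 10 regulators of mitochondrial biogenesis, Nrf1 and Gabpa, whose motifs were searched above, had 286.9 ± 51.38 and 635 ± 100.2 at 0 h and 288.8 ± 36.54 and 633.8 ± 76.14 at 48 h. Motifs read by Yy1 and Myc were searched as well, and Yy1 had 1736 ± 230.1 and 1703 ± 219.2 at these hours. Myc, 0.96 higher in replicate 3 (limma's adjusted p 1.24e-06), had 783.4 ± 300.4 and 1108 ± 492.9 (0.46 ± 0.41, adjusted p 0.668). The coactivator Ppargc1a had 93.7 ± 5.565 and 127.4 ± 51.23 (0.29 ± 0.25, adjusted p 0.656), and the corepressor Nrip1 413.1 ± 40.33 and 662.5 ± 226.9 (0.59 ± 0.25, adjusted p 0.287). Of 23 protein import genes, Timm10, a carrier of the intermembrane space, had 1880 ± 426.1 and 2616 ± 364.8 (0.49 ± 0.16, adjusted p 0.152). Hspa9, the matrix chaperone that pulls proteins in, had 3235 ± 100.6 at 0 h and 4132 ± 262.1 at 24 h (0.35 ± 0.11, adjusted p 0.112).

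Nars2 was the 1 called gene of the lists in 11 of the 15 fits without 1 array. With replicate 3 as a batch term 8 genes of the lists were called, of 84 tested on A and 22 on B. That fit called 13% of all A probe sets at 24 h and 9.79% at 48 h. Its shares for B probe sets were 4.12% and 5.25%. They were Gtpbp10, Hspa9, Lrpprc, Mpv17l2, Mtif2, Nars2, Nrip1 and Timm8a1.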

How the data were processed

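Expression was measured on 30 Affymetrix arrays of total RNA, 15 per chip, with groups read from the sample titles. The values are probe set intensities on a linear scale, 1 column per array, as deposited by the authors. Each array's 2%-trimmed mean was 500.1 to 500.2, so arrays had been scaled to a common level and were not scaled again. How probes were summarised is not given in the sources used here, nor is a genome build, and per the labels the manufacturer's standard protocol was used.

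Probe sets were named through GEO's platform annotation, with symbols updated by gene identifier. Log2(intensity + pseudocount) values used the 20th percentile of each chip as pseudocount (29 and 54), so changes of dim genes are understated. Tested were the brightest 60% of probe sets by mean log2 value, 13576 on A and 13507 on B, leaving out 64 control probe sets per chip. Each chip was fitted alone in limma 3.58.1 (R 4.3.3; lmFit, contrasts.fit, eBayes with trend) over 15 arrays with hour as the factor, two-sided, with Benjamini-Hochberg adjustment within chip and comparison. The fit was tested on simulated data.

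The members, gene lists, motifs and tests were chosen with earlier results of these data known. Named were the 4 brightest and 4 dimmest members, the 5 largest rises and falls at 48 h, the 5 largest differences each way in replicate 3, Mrpl10, Mrpl11, Mrpl12, Mrps12 and the Mrps18 genes, and 2 genes of each pathway list. Other genes were named after their values were seen. Alternatives were other pseudocounts and filters, median centring, quantile normalization, a replicate block, replicate 3 as a batch, replicates 1 and 2 alone, only the hours compared, no trend, array weights, other choices of probe set, and leaving out each array. Promoter sequences and gene starts are RefSeq's, in GRCm38.p6.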

Additional observations from a re-analysis of the deposited data

How the results depend on the processing

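The count of called members at 4 h and at 12 h was 0 under every alternative run, and so was each hour's count and the F test's in all 15 fits without 1 array. At 24 h it rose from 0 to 3 in replicates 1 and 2 alone and to 3 with array weights. At 48 h it rose to 2 with the replicate block (Mrpl4 and Mrps16), 4 in replicates 1 and 2 alone, 5 with array weights and 1 with replicate 3 as a batch term. The F test gave 2 in replicates 1 and 2 alone and 8 with array weights. The count of 14 members between replicate 3 and the others was 9 without a filter, 9 without the trend, and 4 to 17 without 1 array. The 3 called pathway genes became 1 without a filter, 1 over only the hours compared, 8 with the replicate block, 8 in replicates 1 and 2 alone, 8 in the batch fit, 12 with array weights and 1 to 3 without 1 array. Why these counts moved was not tested. Replicate numbers did not pair the arrays by the rule used: correlations of deviations between arrays of 1 number went down to 0.04 on A and 0 on B, while 11 and 10 of 15 arrays were closest to one of their own number.

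Of the 48 h log2 changes of named members, all uncalled, signs turned as follows. In replicates 1 and 2 alone Mrps10 became 0.013, Mrpl51 0.218, Mrps34 0.029, Mrpl12 0.249 and Mrps18c 0.014. With array weights Mrpl51 became 0.151, Mrpl35 0.008 and Mrpl12 0.106. Median centring gave -0.021 for Mrps14 and -0.034 for Mrpl10, and the mean of probe sets 0.119 for Mrps9 and 0.137 for Mrpl15. Leaving out 1 array gave ranges of -0.252 to 0.013 for Mrps10, -0.037 to 0.114 for Mrps14, -0.154 to 0.123 for Mrpl51, -0.435 to 0.065 for Mrps27, -0.043 to 0.569 for Mrps15, -0.433 to 0.177 for Mrpl15 and -0.216 to 0.108 for Mrpl35. The ranges were -0.024 to 0.45 for Mrps18b, -0.316 to 0.059 for Mrps35, -0.178 to 0.04 for Mrps34, -0.212 to 0.221 for Mrpl12, -0.045 to 0.104 for Mrpl10, -0.252 to 0.244 for Mrpl11 and -0.111 to 0.021 for Mrps18c. Of all such values for named members, 917 kept direction and side of the threshold, 11 passed it and 31 turned sign. With 3 arrays an hour the median SE of a member's change was 0.17, which limits what small changes can be seen.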
